A study of Oryza sativa with 12 samples.

Results

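GLT2, GLU5 and BHLH172 are 3 rice genes whose probe sets rose with heat in panicles of both cultivars examined here, out of 17905 genes paired with a probe set of the array. The members were chosen by their measured rise with heat in IR64 and in N22, so those rises are given below as a description, with no test. Their gene identifiers are LOC4339561 for GLT2, LOC4324643 for GLU5 and LOC4340551 for BHLH172. Each gene had 1 probe set on the array, and all 3 probe sets passed the filter on dim probe sets. Panicles of Oryza sativa were sampled in 4 groups of 3 arrays, namely control and heated IR64 and control and heated N22. IR64 is labelled as the heat-susceptible cultivar and N22 (Nagina22) as the heat-tolerant one. Heated plants stood in a facility held 5 °C above the outside air, day and night, for 8 days from booting, and control plants grew in the open field next to it, so that heat and growing place changed together. Panicles came from main tillers, and the number of plants behind a sample was not stated.

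The genes belong to different branches of plant metabolism and growth control. GLT2 encodes an NADH-dependent glutamate synthase (GOGAT), which works with glutamine synthetase: the synthetase fixes ammonium into glutamine, and GOGAT passes the amide group on to 2-oxoglutarate to give glutamate, the entry point of nitrogen into other amino acids. GLU5, also named OsCel9A, encodes an endo-1,4-beta-glucanase of glycoside hydrolase family 9 (GH9), enzymes that cut beta-1,4-linked glucan chains and take part in remodelling plant cell walls as cells grow. BHLH172, also named BU1 (BRASSINOSTEROID UPREGULATED1) and ILI4, encodes a small helix-loop-helix protein without a typical DNA-binding region, which promotes brassinosteroid responses such as bending of the leaf lamina joint in rice.

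The values are log2 expression levels, and a share of 33.2% to 34.5% per array exceeded 4.20, the highest value of 64 reporter probe sets that match no rice gene, which served as the background level. Floral organ identity genes marked the tissue as panicle: of 13 such genes at most 3 lay under background on all arrays of a group, among them DL, a carpel identity gene, which did so in every group. The cultivars differed in endosperm markers. The mean level of the 4 endosperm genes (the glutelin genes GLUA1 and GLUA2, the starch synthase gene GBSS1 and the prolamin gene PROLM25) lay between 14.59 and 14.68 on the 6 N22 arrays and between 2.73 and 4.25 on the 6 IR64 arrays, with GLUA1, GLUA2 and PROLM25 under background on all IR64 arrays. Of 7 anther tapetum markers, TDR, TIP2 and C6 were too dim to be tested, CYP703A3 and PTC1 lay under background on all arrays, while EAT1 exceeded it on 5 arrays and MSP1 on all 12. The mean level of 18 photosynthesis genes, a mark of green tissue, was 11.06 to 11.07 in IR64 control, 10.94 to 11.01 in IR64 heat, 7.54 to 7.63 in N22 control and 9.75 to 9.94 in N22 heat. In samples of whole panicle, fewer cells of a type and less RNA per cell cannot be told apart.

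**Figure D1:**
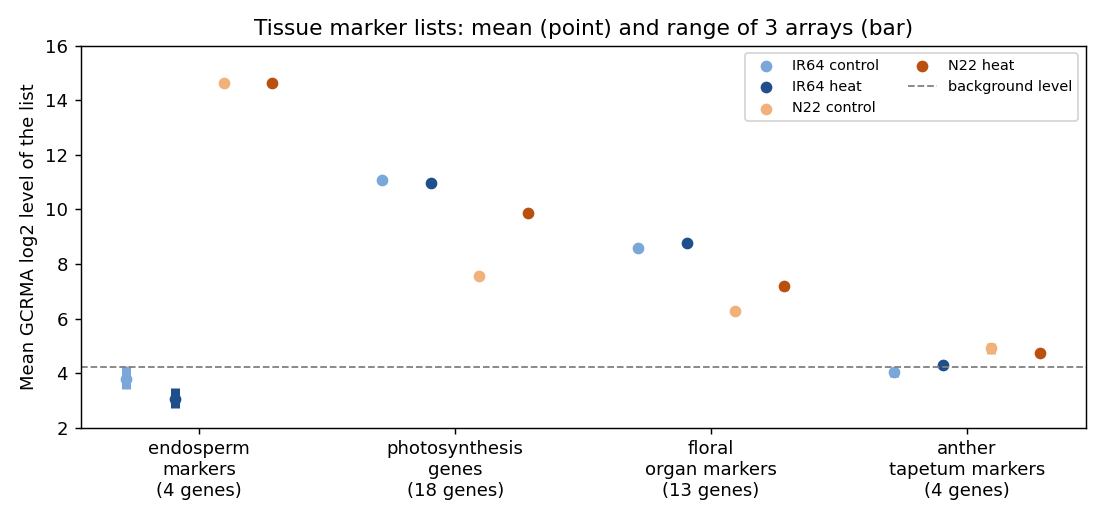
Mean log2 level of 4 lists of marker genes in each group; points are the mean of 3 arrays, bars their range and the dashed line the background level of 4.20. Endosperm markers stood at 14.6 in both N22 groups and at 4.25 or lower on the IR64 arrays, and photosynthesis genes were lowest in N22 control.

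GLT2, the glutamate synthase gene, was faint in control panicles and bright in heated ones. In IR64 its level was 5.45, 5.65 and 5.51 on the 3 control arrays and 9.57, 9.40 and 9.48 on the 3 heat arrays. In N22 it was 4.26, 4.52 and 3.91 in control and 8.87, 8.55 and 8.76 in heat. Every heat array stood above every control array in both cultivars, and the groups did not overlap. The difference of means was 3.94 ± 0.14 in IR64 (SE of the fit, 3 arrays per group), a 15.4-fold rise, and 4.50 ± 0.14 in N22, a 22.6-fold rise. Of the 3 N22 control arrays 1 lay under background, and with all values raised to that level the N22 rise was 4.40.

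GLU5, the endoglucanase gene, was faint in control panicles of both cultivars and brightest in heated IR64. Its level in IR64 was 4.96, 4.85 and 4.49 in control and 10.01, 9.96 and 10.04 in heat. In N22 it was 4.08, 3.76 and 4.49 in control and 7.75, 7.83 and 7.99 in heat. All heat arrays of IR64 stood above those of N22, while the control arrays of the cultivars lay close together and met at 4.49. The difference of means was 5.24 ± 0.17 in IR64, 37.7-fold, and 3.74 ± 0.17 in N22, 13.4-fold. Of the N22 control arrays 2 lay under background, and with values raised to it the N22 rise was 3.56.

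BHLH172, the helix-loop-helix gene, was above background in heated panicles and under it in control panicles of both cultivars. Its level in IR64 was 2.44, 2.38 and 2.50 in control and 4.90, 5.74 and 5.58 in heat. In N22 it was 2.44 on each of the 3 control arrays and 6.97, 6.71 and 6.99 in heat. Unlike the other genes it was brighter under heat in N22 than in IR64, and IR64 heat replicate 1 was the dimmest of the 6 heat arrays. Against the background level the rise was at least 2.31-fold in IR64 and at least 6.44-fold in N22. The fitted differences, 2.97 ± 0.18 and 4.45 ± 0.18, start from control values near the floor of the scale (2.29) and are no measure of fold.

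**Figure D2:**
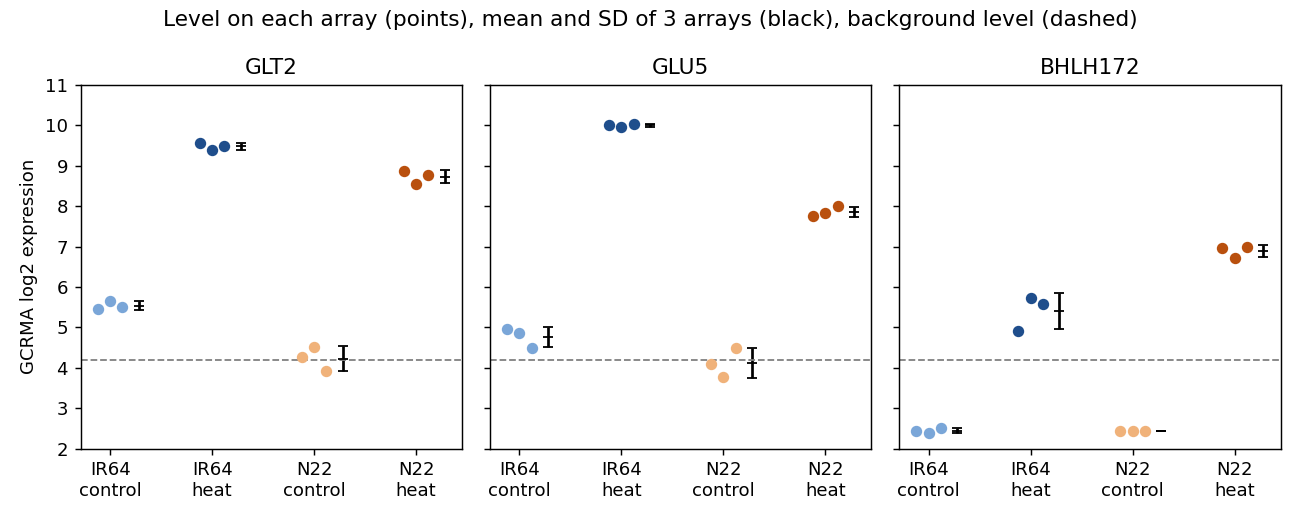
Log2 level of GLT2, GLU5 and BHLH172 on each of the 12 arrays (points), with the mean and SD of 3 arrays (black) and the background level of 4.20 (dashed). In all 3 genes the heat arrays stand above the control arrays of the same cultivar, and the order of the cultivars under heat differs between BHLH172 and the other genes.

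Ordered by group mean, GLT2 ran from IR64 heat (9.48 ± 0.09, SD, n = 3) through N22 heat (8.73 ± 0.16) and IR64 control (5.54 ± 0.10) to N22 control (4.23 ± 0.31), with no overlap between neighbours. GLU5 had the same order, 10.01 ± 0.04, 7.86 ± 0.13, 4.77 ± 0.24 and 4.11 ± 0.37, but its 2 control groups met. BHLH172 ran from N22 heat (6.89 ± 0.15) through IR64 heat (5.41 ± 0.44) to controls at 2.44 that had no order. The SD within groups, pooled over the 4 groups, was 0.19 for GLT2, 0.23 for GLU5 and 0.24 for BHLH172, against a median of 0.14 over all probe sets tested.

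Among 29803 probe sets tested, the rise of GLU5 in IR64 was the 7th largest and its rise in N22 ranked 118. GLT2 ranked 39 in IR64 and 52 in N22, and BHLH172, whose control values lie under background, has no rank. By limma with Benjamini-Hochberg adjusted p under 0.05, 51.8% of probe sets were called for heat in IR64 and 51.7% in N22. Fitted rises of at least 2-fold that were called in both cultivars made up 2.56% of probe sets (764). Those of at least 8-fold in both made up 0.094% (28). Among these the genes with an informative name were GLT2, GLU5 and the laccase gene LAC7. The cut-offs and the ranks use fitted differences, which are no measure of fold where controls lie under background, as for LAC7. These ranks and shares rest on the contrasts that chose the members and nothing is read from them. The heat effect in N22 minus that in IR64 was 0.56 ± 0.20 for GLT2, -1.49 ± 0.25 for GLU5 and 1.48 ± 0.25 for BHLH172, given with no test for the same reason; over all probe sets this contrast was called for 55.4%, 29.3% more positive in N22 and 26.1% more negative. Median centring over the tested probe sets brought the GLT2 difference down to 0.26.

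Measures of RNA and labelling moved with heat in IR64 but less in N22. For GAPDH the 3' minus 5' signal went from 4.79 ± 0.18 to 7.93 ± 0.16 with heat in IR64 (SD over 3 arrays; two-sided exact permutation p = 0.1, the smallest that 3 against 3 arrays allow). In N22 it was 8.59 ± 0.14 in control and 8.81 ± 0.17 in heat (exact permutation p = 0.2). For ubiquitin the same signal differed by 0.70 with heat in IR64 and, in the opposite direction, by -0.17 in N22 (exact permutation p = 0.1 for each). Labelling spike-ins differed by 1.54 with heat in IR64 and by 0.15 in N22. Hybridisation spike-ins differed by 0.81 in IR64 (exact permutation p = 0.1) and by -0.15 in N22 (exact permutation p = 0.5). Photosynthesis genes rose with heat in N22, 17 of 18 called with a median of 2.59, against 23.9% of all probe sets called up. In IR64, 7 of them were called up and 8 down with a median of -0.05, against 24.2% and 27.5% of all probe sets. The endosperm markers had a mean of 14.64 in both N22 groups, and 0 of 4 were called there by limma for heat, also at unadjusted p under 0.05. Over all probe sets 51.7% were called for heat in N22 at adjusted p under 0.05. The part of the RNA measures and of green tissue in the heat differences of the 3 genes was not tested.

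The cultivars were compared as the mean of both conditions, which was tested for GLT2 and GLU5. In this balanced design that mean is uncorrelated with both heat effects if all groups have the same spread, as the fit assumes. For GLU5 the SD within groups ran from 0.04 to 0.37, and the test shares its estimate of spread with the heat contrasts. The differences within control or within heat share arrays with the contrasts that chose the genes, so they are given as a description. GLT2 was lower in N22 than in IR64, by -1.03 ± 0.10 in the mean over both conditions (limma adjusted p = 3.52e-06). With values under background raised to it, this mean difference was -0.98. The difference was -1.31 ± 0.14 in control, 2.48-fold, and -0.75 ± 0.14 in heat, 1.68-fold, with all 3 N22 arrays under all 3 IR64 arrays each time. For the mean the same test called 74.8% of all probe sets, 36.0% higher and 38.9% lower in N22, so that a called cultivar difference was common on these arrays.

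GLU5 was also lower in N22, by -1.40 ± 0.12 in the mean over both conditions (limma adjusted p = 1.51e-06). Part of the N22 control arrays lay under background, and with values raised to it this mean difference was -1.31. Under heat the difference was -2.15 ± 0.17, 4.44-fold, with no overlap of the arrays. In control it was -0.66 ± 0.17, 1.58-fold, with N22 control replicate 3 level with IR64 control replicate 3.

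BHLH172 was the one gene of the 3 that was higher in N22, by 1.48 ± 0.18 under heat, 2.79-fold, and all 3 N22 heat arrays stood above all 3 IR64 heat arrays. In control both cultivars lay under background, and no fold is given. The mean over both conditions then holds only the heat arrays that chose the gene, and it was not tested.

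Endosperm markers were higher in N22. In control GLUA1 was at least 936-fold, GLUA2 at least 1541-fold and PROLM25 at least 1149-fold higher there, from IR64 values under background. Each of these was read from a shared probe set, the brightest tested for its gene. The other tested probe set of GLUA2 was called lower in N22, in control and in heat. Photosynthesis genes differed by a median of -3.92 in control and -0.90 in heat, all 18 called lower in N22 in each condition, against 70.6% of all probe sets called in control (35.1% higher and 35.6% lower in N22) and 63.1% in heat (29.6% and 33.5%). Among them CHLI lay under background in both heat groups and in N22 control, so its call in heat compares values under background. PORA and CHLH lay under background in N22 control. Each gene was read from its brightest tested probe set. For CHLH that probe set is shared, and its other tested probe set was called higher in N22 in each condition. Centring over the tested probe sets turned the control split from 10450 higher and 10598 lower to 14528 and 9124. The 3' minus 5' signal of GAPDH was higher in N22 by 3.80 in control and by 0.88 in heat, and labelling spike-ins differed by -1.03 in heat (exact permutation p = 0.1 for each, the smallest possible). That of ubiquitin differed by 0.76 in control and, the other way, by -0.12 in heat (exact permutation p = 0.1 for each). Hybridisation spike-ins differed by 0.68 in control (exact permutation p = 0.1) and by -0.28 in heat (exact permutation p = 0.2). These differences stand beside each cultivar difference above, and their part in it was not tested. A change in the sequence that a probe matches and a change in level cannot be told apart between cultivars, since probe sequences were not used here.

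Of the other nitrogen assimilation genes, Fd-GOGAT, GLN2 and AMT2-1 were called up with heat in both cultivars. In IR64, 4 of 15 tested genes rose with heat, 9 fell and 2 did not pass the test; the median was -0.87, and -0.47 once dim values were set to background, against 24.2% up, 27.5% down and a median of 0.00 over all probe sets. In N22, 6 rose, 1 of them (AMT1-2) from one value under background to another, 4 fell and 5 did not pass; the median was 0.07 (0.00 with dim values at background, and -0.13 with centring over the tested probe sets), against 23.9% up, 27.8% down and a median of -0.01. Centring over the tested probe sets turned the split of all calls to 9125 up and 6941 down in IR64, from 7218 and 8210, and to 5564 up and 13429 down in N22, from 7121 and 8290.

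Fd-GOGAT, the ferredoxin-dependent glutamate synthase of plastids, rose in both cultivars by much less than GLT2, 0.97 ± 0.08 in IR64 and 1.24 ± 0.08 in N22. GLN2, the plastid glutamine synthetase, rose by 0.98 ± 0.08 and 3.54 ± 0.08. The cytosolic synthetases all fell in IR64, while in N22 GLN1-2 and GLN1-3 fell and GLN1-1 rose. GLN1-2 fell in both, by 1.28 ± 0.07 and 1.08 ± 0.07, and GLN1-3 fell at least 9.97-fold in IR64, to background, and by 1.03 ± 0.09 in N22. GLN1-1 fell by 2.72 ± 0.10 in IR64 and rose by 0.77 ± 0.10 in N22. NIA1, a nitrate reductase gene, likewise fell by 3.21 ± 0.15 in IR64 and rose by 2.41 ± 0.15 in N22.

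Glutamate dehydrogenase genes, whose enzymes link glutamate and 2-oxoglutarate, gave no rise of the size of GLT2. GDH1 fell by 1.89 ± 0.16 in IR64 and was not called in N22 (-0.34 ± 0.16), and GDH2 rose by 0.19 ± 0.06 in IR64 and fell by 1.73 ± 0.06 in N22. Among ammonium transporter genes, AMT2-1 rose in both, by 0.61 ± 0.11 in IR64 and at least 1.85-fold in N22, from background. AMT3-2 (shared probe set) fell in both, 8.0-fold in IR64 and 1.87-fold in N22. AMT1-1 fell by 0.47 ± 0.18 in IR64 and was not called in N22 (0.46 ± 0.18), AMT1-2 fell by 0.87 ± 0.22 in IR64 and lay under background in both N22 groups. AMT3-3 fell at least 1.36-fold in IR64, to background, and lay under it in N22. AMT2-3 and AMT3-1 lay under background on all arrays, and GDH3 and AMT2-2 were too dim to be tested.

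Among the other GH9 endoglucanase genes, GLU1 alone was called up in both cultivars. In IR64, 1 of 9 tested genes rose, 6 fell and 2 did not pass the test; the median was -0.59, and 0.00 once dim values were set to background. In N22, 4 rose, 1 fell and 4 did not pass, with a median of 0.00 either way. Over all probe sets 24.2% rose and 27.5% fell in IR64, and 23.9% and 27.8% in N22. GLU1 rose by 0.21 ± 0.07 in IR64 and 0.87 ± 0.07 in N22. GLU2 fell by 4.09 ± 0.08 in IR64 and rose by 0.79 ± 0.08 in N22, and GLU11 fell by 1.76 ± 0.14 and rose by 1.10 ± 0.14. GLU10 fell by 2.90 ± 0.11 in IR64, to a mean of 4.05 near background. It was not called in N22 (-0.07 ± 0.11), where its means of 4.22 in control and 4.15 in heat were also near background. OsCel9E fell by 0.65 ± 0.14 in IR64 and was not called in N22 (-0.05 ± 0.14). GLU13 rose by 1.47 ± 0.10 in N22 and was not called in IR64 (0.14 ± 0.10). GLU8 fell at least 2.09-fold in N22, to background, and lay under background in both IR64 groups. GLU6 and GLU15 (shared probe set), the remaining called falls in IR64, lay under background on all arrays, and GLU12, GLU14 and OsCel9C were too dim to be tested.

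**Figure D3:**
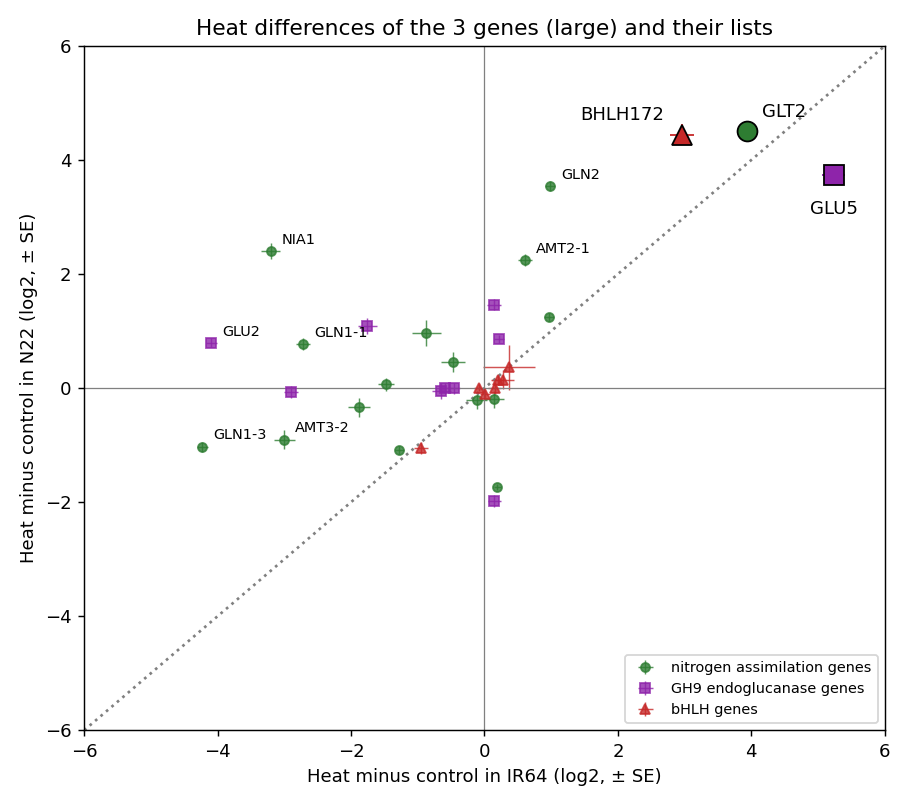
Heat minus control in IR64 (x axis) against N22 (y axis), both log2 with SE, for nitrogen assimilation, GH9 endoglucanase and bHLH genes; the large marks are GLT2, GLU5 and BHLH172 and the dotted line marks equal differences. The large marks lie at the upper right, between 2.97 and 5.24 in IR64 and between 3.74 and 4.50 in N22, those of BHLH172 resting on controls under background, while NIA1 and GLU2 fell in IR64 and rose in N22.

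The other basic helix-loop-helix (bHLH) genes were a list looked up by name, which need not hold the whole family. Of these, 7 of 13 could be tested, so the count says little about the family. By limma 1 gene was called for heat in each cultivar, also at unadjusted p under 0.05, against 51.8% of all probe sets in IR64 and 51.7% in N22. It was IRO3, a regulator of the iron deficiency response, which fell by 0.95 ± 0.11 in IR64 and 1.05 ± 0.11 in N22. ILI6 and IBH1, helix-loop-helix genes of the brassinosteroid pathway like BHLH172, lay under background on all arrays, as did bHLH081 and BHLH004. BHLH148 was measured and not called (0.28 ± 0.16 in IR64 and 0.15 ± 0.16 in N22). EAT1, a tapetum regulator, was not called in N22 (0.36 ± 0.39) and lay under background in both IR64 groups.

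A list of brassinosteroid genes was added after the gene table and the values of BHLH172 had been seen. In IR64, 7 of 15 tested genes rose with heat, 3 fell and 5 did not pass (median -0.01). In N22, 4 rose, 3 fell and 8 did not pass (median -0.06), and 11 were called when centring over the tested probe sets. The shares over all probe sets were 24.2% up and 27.5% down in IR64, and 23.9% and 27.8% in N22. From this list the genes named here were picked for their roles. BRI1, the hormone receptor, rose by 0.64 ± 0.05 in IR64 and 0.26 ± 0.05 in N22, and its co-receptor gene BAK1 fell by 0.38 ± 0.10 in IR64 and was not called in N22 (0.21 ± 0.10). The kinase genes of the GSK family, of which GSK2 restrains the pathway, moved in different directions. GSK2 rose by 0.82 ± 0.10 in IR64 and was not called in N22 (-0.09 ± 0.10). GSK1 (shared probe set) fell by 0.45 ± 0.06 in IR64 and was not called in N22 (-0.06 ± 0.06). GSK4 fell by 0.18 ± 0.05 in IR64 and rose by 0.52 ± 0.05 in N22. BZR1, a transcription factor gene of the pathway, rose by 0.32 ± 0.06 in IR64 and was not called in N22 (0.10 ± 0.06). BZR2 rose by 0.37 ± 0.09 in IR64 and fell by 0.26 ± 0.09 in N22, and BZR3 rose by 0.26 ± 0.09 in IR64 and was not called in N22 (0.09 ± 0.09). Of the hormone synthesis genes, CPD2 rose in both, by 0.84 ± 0.15 and 1.53 ± 0.15. DWARF rose by 0.64 ± 0.14 in N22 and was not called in IR64 (-0.03 ± 0.14), and D11 (shared probe set) fell at least 1.62-fold in N22, to background.

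Likeness of pattern was measured as the root mean square (RMS) difference between the 4 group means of a pair of probe sets, each profile centred on its own mean. It describes these 4 means, which include the heat effects that chose the members. The named gene nearest to GLT2 was GLU5, at an RMS difference of 0.56 log2 units, with 8 probe sets without an informative name nearer. Next came LAC7 (0.62), the glutaredoxin genes GRXC1 (0.72) and GRXC10 (0.78) and FOR1 (0.80), a floral organ regulator gene. For GLU5 the order was GLT2 (0.56), GRXC1 (0.64), LAC7 (0.79), GRXC10 (0.95) and FOR1 (0.97). GRXC10 was bright in all groups and went from 8.94 ± 0.08 to 11.79 ± 0.06 in IR64 and from 6.19 ± 0.08 to 9.97 ± 0.11 in N22 (SD, n = 3).

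With values under background raised to it, a setting chosen after seeing the data, GLU5 stayed the named gene nearest to GLT2 (0.57), and 3 of the 5 genes were the same for GLT2 and for GLU5. LAC7 and GRXC1 were then no longer among the 5.

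The distances of BHLH172, 0.95 from GLT2 and 1.36 from GLU5, use control values under background, and they were 1.43 and 1.78 with those values raised to it. As deposited, its nearest named genes were LAC7 (0.70), OSE727A (0.82, shared probe set), the small heat shock protein gene HSP16.9B (0.85), NH1 (0.94), a regulator of salicylic acid defence, and GLT2. With values raised to background 0 of these 5 remained among its nearest, so the order describes values near the floor of the scale. HSP16.9B, like BHLH172, was brighter under heat in N22 (10.28 ± 0.20) than in IR64 (6.80 ± 0.26). LAC7, whose probe set can match several transcripts, had 6.47 ± 0.35 in IR64 heat and 5.97 ± 0.20 in N22 heat and both controls under background.

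**Figure D4:**
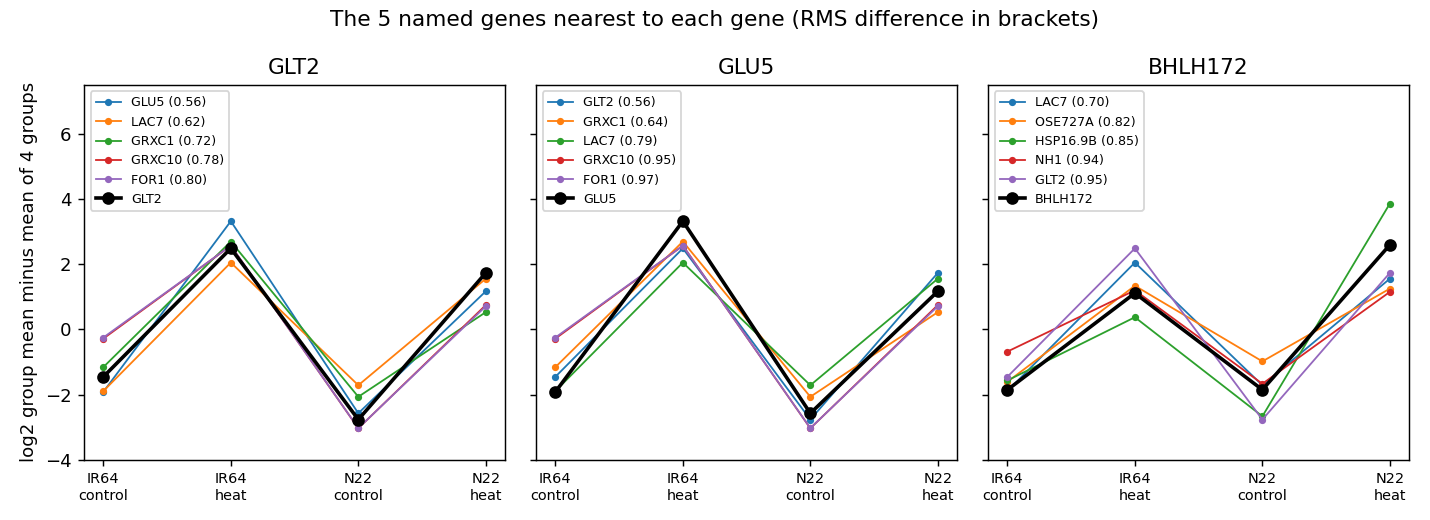
Group means of GLT2, GLU5 and BHLH172 (black) and of the 5 named genes nearest to each, in log2 units after subtracting each gene's mean over the 4 groups; the lines join groups and carry no order. All profiles are higher in heat than in control within each cultivar, and BHLH172 and HSP16.9B have their peak in N22 heat.

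Genes next to the members on the chromosomes were examined with the same fit. Of the 3 nearest tested genes on either side of each member, 18 in all, 2 were called up with heat in both cultivars and 0 by at least 2-fold in both, near the shares over all probe sets, 9.33% and 2.56%. Their heat differences lay between -2.67 and 0.84 in IR64 and between -3.45 and 1.52 in N22. The 2 genes called up in both were LOC4339560, next to GLT2 (0.17 in IR64 and 1.22 in N22), and LOC4340553, near BHLH172 (0.57 and 0.44), the latter under background in all 4 group means.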

How the data were processed

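The deposited values are log2 levels of 57381 probe sets on 12 arrays, which the authors made with GCRMA per the submitters' processing notes; the settings were not stated. Values lie between 2.29 and 15.8, and 38.6% sit at the lowest value. Raw scanner files were not analysed here.

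The 123 control probe sets were left out, and a probe set was tested where it exceeded the table median of 2.35 on at least 3 arrays, which left 29803. Means of the 4 groups were fitted with limma 3.58.1 in R 4.3.3 (lmFit, eBayes defaults, 8 residual and 1.79 prior degrees of freedom), after a test on simulated data, and p-values were adjusted over all tested probe sets (Benjamini-Hochberg, called under 0.05, two-sided). A gene of a list was read from its brightest tested probe set, and the 3 members were left out of list counts. Probe sets called shared can match several transcripts. A fold is a bound, from the brighter mean to 4.20, if no array of the dimmer group exceeded background.

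Of the probe sets, 22436 paired with 1 gene, 95 with several and 34850 with none. Names came from the array annotation and the RefSeq table of ASM3414082v1, used for names and for which genes neighbour each other; all 17905 genes were found in it and 2457 had an informative name. The named genes were the members, every tested gene of the nitrogen and endoglucanase lists, called bHLH genes and those of anther development, and for each member the 5 named genes nearest in pattern. The remaining tested bHLH genes, the brassinosteroid genes and the neighbours were named outside this rule, after their values were seen.

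The members and lists were chosen with earlier results of these data known. Replicates are not labelled as separate plants, so the spread behind the p-values may be technical, and 3 arrays per group limit the precision. Alternatives changed the normalization, the filter, values under background, the samples in the fit, the variance model, the probe sets of a gene and the replicate block, and left out each array.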

Additional observations from a re-analysis of the deposited data

Results flagged for a closer look

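Several genes of the lists described with GLT2, GLU5 and BHLH172 were picked out because their heat effects differed between the cultivars by limma's test of the difference (N22 minus IR64, log2, adjusted p under 0.05), which called 55.4% of all tested probe sets, 8744 more positive in N22 and 7765 more negative (6599 and 13805 with centring over the tested probe sets). Among nitrogen assimilation genes the heat effect was more positive in N22 by 5.61 for NIA1, 3.50 for GLN1-1, 3.20 for GLN1-3, 2.56 for GLN2, 2.09 for AMT3-2, 1.84 for AMT1-2, 1.64 for AMT2-1, 1.55 for GDH1, 1.55 for AMT3-3 and 0.93 for AMT1-1, and it was -1.93 for GDH2. Of these, AMT1-2 and AMT3-3 lay under background in both N22 groups, and GLN1-3, GDH1, AMT2-1 and AMT3-3 had 1 or more groups under it, so their differences rest in part on values that have bounds only. NIA1 and GLN1-1 were called in opposite directions in the 2 cultivars.

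Among GH9 endoglucanase genes the difference was 4.89 for GLU2, 2.85 for GLU11, 2.83 for GLU10, 1.33 for GLU13, 0.65 for GLU1, 0.60 for OsCel9E, 0.59 for GLU6 and 0.46 for GLU15, the last pair under background on all arrays, and -2.14 for GLU8, which was above background in N22 control alone. The GLU10 means in IR64 heat, N22 control and N22 heat lay near background, so its difference rests in part on values near that level. GLU5 itself lay with GLU8 on the negative side, with a difference given above that was not tested. Among the brassinosteroid genes named, it was -0.38 for BRI1, 0.60 for BAK1, -0.91 for GSK2, 0.39 for GSK1, 0.70 for GSK4, -0.62 for BZR2, 0.67 for DWARF, 0.69 for CPD2 and -1.25 for D11, which was above background in N22 control alone. The other called genes of that list were LIC (-0.98) and RGA1 (-0.33, shared probe set). The photosynthesis genes moved the same way as most of these nitrogen genes, with 15 of 18 more positive in N22, and the part of that in the differences was not tested. For RBCS, counted among them from its brightest tested probe set, another tested probe set was called more negative in N22.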

How the results depend on the processing

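Of 372 values of the 3 genes under alternatives, 366 kept their call or stayed within the replicate spread, and none reversed. Many of these values could not move. A difference of means stays the same when an array of another group is left out. It also stays the same when the filter, the variance model or the replicate block changes. The count is therefore no measure of how stable the differences are. The GLU5 cultivar difference in control, given as a description with no test, stayed at -0.66 when only the control arrays were fitted. It was the 1 value that lost its call, there, and this is not read as a test. With values raised to background the BHLH172 heat differences were 1.21 in IR64 and 2.69 in N22, since control values are lifted. Centring over the tested probe sets, chosen after seeing the data, put the median heat difference over all probe sets at 0.11 in IR64 and -0.20 in N22, and gave 4.05 for the GLT2 heat difference in IR64 (4.09 with quantile normalization) and 4.25 for BHLH172 in N22. It also gave 2 called bHLH genes for heat in each cultivar in place of 1, 4 for the difference of heat effects in place of 0 (1 with quantile normalization), and 11 called brassinosteroid genes for heat in N22 in place of 7. With values raised to background, 2 bHLH genes were called between cultivars in control in place of 4. With 1 array left out, the bHLH count for heat in IR64 ranged from 1 to 2 (2 without IR64 control replicate 3 or IR64 heat replicate 3). The cause of these changes was not tested, apart from lifted values.

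No pairing of the samples by replicate number was seen: deviations of same-numbered arrays correlated between -0.05 and 0.10 over 18 pairs, and an array correlated best with its own number in 13 of 36 comparisons. With 3 arrays per group this cannot show that the samples were unpaired. With a replicate block the mean GLT2 cultivar difference stayed at -1.03 (limma adjusted p = 2.64e-05), and the block changed no call of GLT2 or GLU5; 15263 probe sets were called for heat in IR64 in place of 15428. With 3 arrays per group, signals under background have bounds only.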
